A study of Rattus norvegicus with 145 samples.

Results

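The zonation markers of the liver lobule described here are 10 of the 17337 genes counted in each of 5 data sets of rat liver RNA. They were taken by symbol: 7 genes that Wnt signalling drives near the central vein (Glul, Axin2, Lgr5, Tbx3, Rhbg, Nkd1 and Lect2) and 3 genes of the periportal zone (Gls2, Hal and Sds). All 10 were present, and all 10 passed the filter on low counts in each data set, so none was lost to detection. The samples are pieces of the left liver lobe, sequenced in bulk, in which fewer cells of a type and less RNA per cell cannot be told apart.

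Acetamide, a small amide and rat liver carcinogen, was given in water by daily gavage to Wistar rats (labelled Crl:WI) of 8 to 10 weeks, and liver RNA was sequenced 24 h after the last dose, following an overnight fast. In experiment A, males were dosed for 7 days with 0, 30, 100 or 300 mg per kg body weight and day (mkd), and the top dose was 1000 mkd. In experiment B, males and females received 0, 300, 500, 750, 1000 or 1500 mkd for 7 or 28 days and were killed on day 8 or day 29. Each of the 29 groups held 5 rats, and each rat gave 1 library. The label of the rats is the same throughout, but the methods name different suppliers for experiments A and B. The control groups received the water vehicle alone.

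The liver lobule is fed at the portal triads and drained by the central vein, and hepatocytes along this path do different work. Endothelial cells around the central vein release Wnt ligands and R-spondins, and beta-catenin in the nearest hepatocytes then switches on the pericentral programme. Glutamine synthetase (Glul) captures the ammonium that escapes the periportal cells, which break down glutamine, histidine and serine and feed the urea cycle. Axin2 and Nkd1 are negative feedback regulators of the Wnt pathway and are widely read as its direct targets. Lgr5 is the R-spondin receptor, Tbx3 a T-box repressor of pericentral hepatocytes, Rhbg an ammonium transporter of the Rh family and Lect2 a secreted hepatokine. Gls2 encodes liver-type glutaminase, Hal histidine ammonia-lyase and Sds serine dehydratase, an enzyme well known for its response to fasting, glucagon and dietary protein.

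The promoters of Axin2, Nkd1 and Lect2 and the more upstream promoter of Glul are shown. Their sequence holds the core of the element read by TCF/LEF, the factors through which beta-catenin acts. Each run is the 250 bases before a RefSeq gene start (GRCr8 build), 5′ to 3′ on the strand of the gene, with the string CTTTGA or its reverse complement TCAAAG in capitals.
Axin2: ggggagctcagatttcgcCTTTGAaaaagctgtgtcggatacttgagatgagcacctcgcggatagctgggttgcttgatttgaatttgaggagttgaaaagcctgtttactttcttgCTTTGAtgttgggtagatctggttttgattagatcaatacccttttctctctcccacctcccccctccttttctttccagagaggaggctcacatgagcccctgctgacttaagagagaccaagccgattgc
Nkd1: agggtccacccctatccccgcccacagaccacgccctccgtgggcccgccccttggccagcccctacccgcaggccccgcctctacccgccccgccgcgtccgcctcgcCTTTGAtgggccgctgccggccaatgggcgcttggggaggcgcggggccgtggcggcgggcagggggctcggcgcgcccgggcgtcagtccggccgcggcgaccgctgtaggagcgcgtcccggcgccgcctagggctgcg
Lect2: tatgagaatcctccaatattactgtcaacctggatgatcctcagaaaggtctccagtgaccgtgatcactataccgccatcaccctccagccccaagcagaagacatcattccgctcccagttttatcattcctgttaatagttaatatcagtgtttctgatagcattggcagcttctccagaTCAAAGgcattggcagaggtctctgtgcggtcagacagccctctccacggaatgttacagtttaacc
Glul: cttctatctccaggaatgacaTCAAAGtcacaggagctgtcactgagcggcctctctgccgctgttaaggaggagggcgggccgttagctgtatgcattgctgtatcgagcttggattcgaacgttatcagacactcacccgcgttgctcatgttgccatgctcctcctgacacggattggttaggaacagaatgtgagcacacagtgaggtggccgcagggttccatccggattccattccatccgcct
The Axin2 run lies at chr10:94398535-94398784 on the plus strand, Nkd1 at chr19:34722847-34723096 on the minus strand, Lect2 at chr17:8049784-8050033 on the plus strand and Glul at chr13:68519250-68519499 on the plus strand. Axin2 held 2 matches as written, which begin 232 and 132 bases before the start. Nkd1 held 1 match as written, 141 bases before the start. Lect2 and Glul each held 1 match in reverse complement, 67 and 229 bases before the start. Windows were matched for 6 of the 10 members, 8 windows in all, and 4 of them held the string. The window of Rhbg and both windows of Gls2 did not. Nor did the second window of Glul, which lies downstream of the first at chr13:68575816-68576065 on the plus strand. Over all promoters of this length, 4656 of 33469 windows (13.9%) and 4090 of 27457 genes (14.9%) held it. No window was matched for Lgr5, Tbx3, Hal or Sds.

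Levels below are CPM, the reads of a gene as a share of its library, brought to a fixed total after TMM scaling within a data set. They compare rats for a given gene, and not genes with each other, because transcript length was not taken into account. A member was called at a dose with a |fold change| of at least 1.5 and an adjusted p of at most 0.05 (edgeR, Benjamini-Hochberg over all genes tested). A dose trend, in log2 units per 1000 mkd, was called by the adjusted p alone. Where all treated rats lay above or below all controls, the share of all genes with such a separation was not counted. Between 15449716 and 39986531 reads per rat fell on genes, and Lgr5, the sparsest member, had 0 to 46 reads per rat.

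TMM factors were raised in the groups with the largest responses. They were 0.856 to 0.976 in controls of experiment A against 1.06 to 1.91 at 1000 mkd, and 0.735 to 1.02 in control females of day 29 against 1.03 to 1.45 at 1500 mkd. Scaling to total gene reads instead moved the median of all genes up by 0.58 on the log2 scale in the first comparison and by 0.43 in the second (0.14 to 0.22 in the other 3), so changes are given relative to the bulk of genes. The other scaling was looked at for the highest doses and the trends, and is stated there where a direction or a call depends on it. No result with it is given for the lower doses or for the comparisons of sexes, days and experiments, vehicle rats included. The factor of 1.91 in experiment A belonged to replicate 2 of the rats given 1000 mkd, the lowest treated rat for Gls2, Hal and Lect2. The rat that stands apart in the text below is another, replicate 3 of the males given 1500 mkd for 28 days. Its TMM factor was 1.49 against 0.970 to 1.08 in the other rats of the group. This rat was the highest of the 5 for Glul, Axin2, Lgr5, Tbx3, Rhbg and Nkd1 and the lowest for Lect2, Gls2, Hal and Sds. The main results for these males are given with and without it.

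In experiment A Gls2 fell at 1000 mkd past both criteria, Hal was lower by less than the fold criterion and Sds was not lower. Of the pericentral members Axin2 and Nkd1 had a rising linear trend over the doses and Lect2 a falling one. Gls2 was 217, 284, 280, 271 and 216 CPM in the 5 control rats and 184, 94.8, 135, 128 and 211 CPM in the 5 rats given 1000 mkd. Every treated rat lay below every control, although the highest treated rat was close to the lowest control. The change was −0.75 ± 0.20 on the log2 scale (SE), with an adjusted p of 0.00761 in edgeR. It was the 1 member of 10 called, where 21.4% of all genes tested were called at this dose and 7.45% were called lower. The call was lost without replicate 2 of every group (−0.57, edgeR adjusted p = 0.0402, under the fold criterion), without replicate 4 of every group (−0.66, edgeR adjusted p = 0.0697) and with scaling to total reads (−0.21, edgeR adjusted p = 0.374). It was kept without treated replicate 2 alone, the rat with the TMM factor of 1.91.

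Hal was 217, 215, 239, 244 and 207 CPM in the controls of experiment A and 168, 123, 167, 147 and 206 CPM at 1000 mkd. All 5 treated rats were below all controls, by a change of −0.47 ± 0.17 (SE; edgeR adjusted p = 0.0357), which is under the fold criterion and turned to 0.08 with total-read scaling. Lect2 was 113, 137, 131, 144.5 and 165 CPM in controls and 125, 56.9, 137, 90.5 and 80.6 CPM in treated rats, of which 3 of 5 lay below all controls. Its change of −0.50 ± 0.18 (SE; edgeR adjusted p = 0.0426) also missed the fold criterion. Sds, the third periportal gene, was 150 ± 94.0 CPM in controls and 161 ± 138 CPM at 1000 mkd (SD, n = 5), a spread within each group that was close to its mean.

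Nkd1 was 2.63, 2.25, 1.81, 2.14 and 2.26 CPM in the controls of experiment A and 4.53, 3.39, 2.07, 3.76 and 3.25 CPM at 1000 mkd. Of the 5 treated rats 4 were above all controls, and replicate 3 lay within their range. Axin2 was 6.63, 4.61, 6.58, 7.44 and 7.55 CPM in controls and 7.03, 9.51, 12.2, 8.01 and 13.8 CPM at 1000 mkd, again with 4 of 5 treated rats above all controls. Their changes were 0.62 ± 0.28 for Nkd1 and 0.62 ± 0.25 for Axin2 (SE), with edgeR adjusted p of 0.0929 and 0.0658, and neither was called. With total-read scaling both were called, at 1.20 each. Leaving out treated replicate 1 called Axin2 (0.73) and Lect2 (−0.60) beside Gls2, and leaving out treated replicate 3 called Nkd1 (0.75) and Lect2 (−0.65) beside Gls2. Without replicate 5 of every group Hal was called (−0.60). Glul, Lgr5, Tbx3 and Rhbg differed from controls by −0.10 to 0.06, with an edgeR adjusted p of at least 0.817.

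Along the doses of experiment A, 5 of 10 members had a trend (edgeR, adjusted p of at most 0.05), where 45.9% of all genes had one (23.5% rising and 22.4% falling). Axin2 rose by 0.59 and Nkd1 by 0.64 log2 units per 1000 mkd. Lect2 fell by 0.59, Gls2 by 0.92 and Hal by 0.49. With total-read scaling Axin2 and Nkd1 were still called, Glul was called as rising (0.55), the slopes of Lect2 (−0.06) and Gls2 (−0.34) were not called, and the slope of Hal turned to 0.099. The trend of Axin2 was lost without replicate 2, 3 or 5 of every group (0.39 to 0.64), that of Nkd1 without replicate 1, 4 or 5 (0.58 to 0.60) and that of Hal without replicate 2 or 4 (−0.41 to −0.38). At 30, 100 and 300 mkd edgeR called 0 of 10 members, and 1 member, Tbx3 at 30 mkd, had an unadjusted p under 0.05. DESeq2 also called 0, and 0% of all genes were called by edgeR at these doses.

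**Figure D1:**
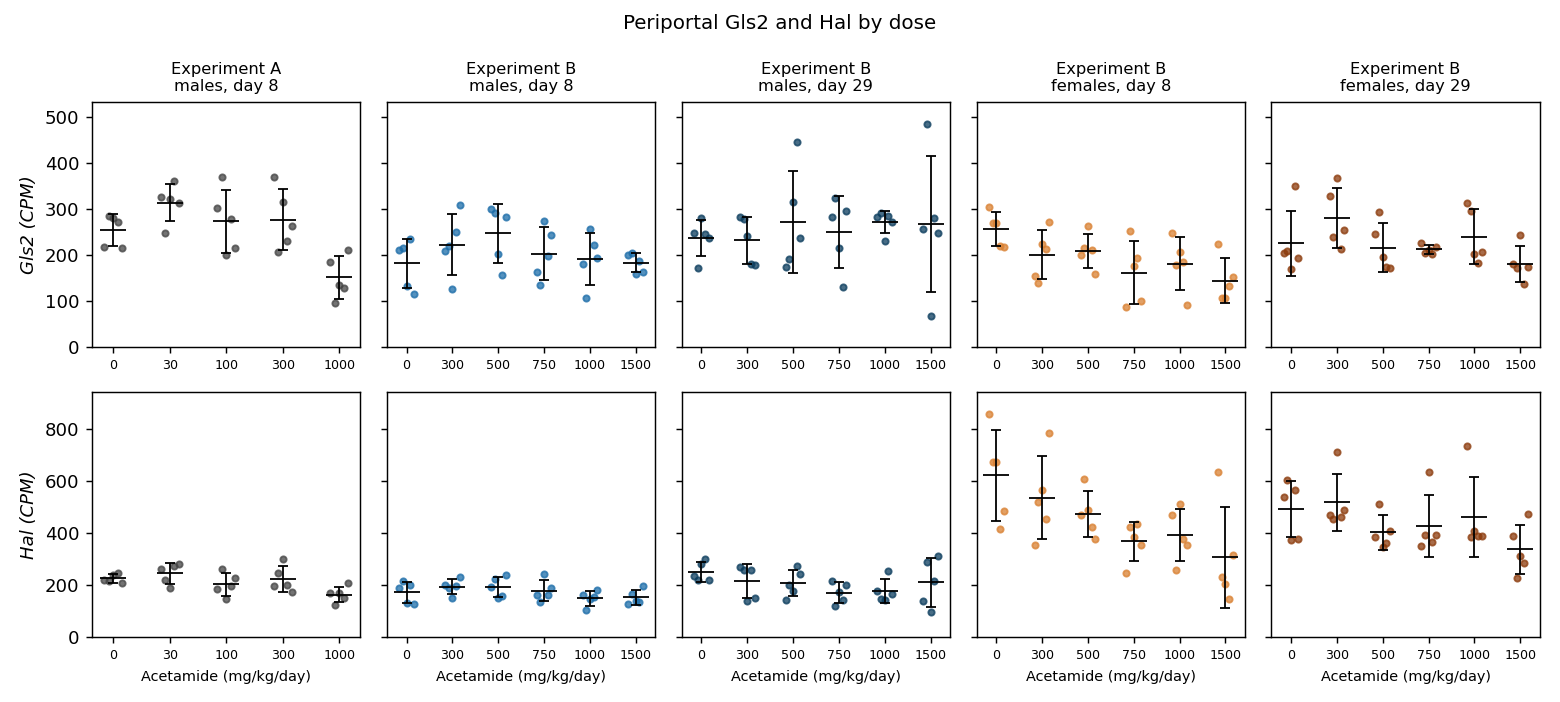
Level of Gls2 and Hal (CPM, linear axis) by dose of acetamide (mkd) in the 5 data sets, with a point for each rat and the mean ± SD of 5 rats. The 5 rats of experiment A given 1000 mkd sit at 94.8 to 211 CPM for Gls2, under the controls at 216 to 284 CPM, and Hal sits higher in females than in males.

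In experiment B, males killed on day 8 showed no called member. At 1500 mkd edgeR called 0 of 10, with 0.177% of all genes called (0.142% higher and 0.0354% lower), DESeq2 called 0, and 1 member, Axin2, had an unadjusted p under 0.05. Axin2 was 6.77, 7.05, 8.65, 9.95 and 6.38 CPM in controls and 13.9, 11.7, 8.66, 14.6 and 8.53 CPM at 1500 mkd, with 3 of 5 treated rats above all controls and a change of 0.56 ± 0.27 (SE; edgeR adjusted p = 0.386). Gls2 was 181 ± 53.4 CPM in controls and 182 ± 20.8 CPM at 1500 mkd (SD, n = 5), a change of 0.01 ± 0.24 (SE). No member was called at the lower doses by either tool, where Tbx3 at 750 mkd and Rhbg at 1000 mkd had an unadjusted p under 0.05. For the trends, 0 of 10 members passed edgeR, against 2.52% of all genes (1.98% rising and 0.54% falling), and Axin2 alone had an unadjusted p under 0.05.

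Males given 1000 mkd for 7 days were part of both experiments, although the supplier of the rats and any other difference between the experiments cannot be told apart. The response of Gls2 was 0.85 ± 0.32 higher in experiment B than in experiment A (log2, SE), and that of Nkd1 was 0.87 ± 0.37 lower. Neither difference passed the test of the interaction, with edgeR adjusted p of 0.0926 and 0.137. Of the 10 members 0 passed, these 2 had an unadjusted p under 0.05, and 7.48% of all genes passed. EdgeR with the size factors of DESeq2 also passed 0 members.

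In females killed on day 8 the members with the largest changes relative to their error were Hal and Gls2. Hal was 858, 675, 673, 417 and 485 CPM in control females and 634, 230, 204, 144 and 316 CPM at 1500 mkd. Of 5 treated rats 4 lay below all controls, while treated replicate 1 stood within the control range. Gls2 was 304, 269, 268, 219 and 217 CPM in controls and 224, 105, 107, 131 and 151 CPM at 1500 mkd, and the same replicate 1 was the highest treated rat. The changes were −1.02 ± 0.29 for Hal and −0.83 ± 0.27 for Gls2 (SE), with edgeR adjusted p of 0.0747 and 0.106. So 0 of 10 members were called by edgeR, where 0.705% of all genes were, and these 2 had an unadjusted p under 0.05. DESeq2 called both, and without treated replicate 1 edgeR also called both, with changes of −1.46 for Hal (adjusted p = 0.0034) and −1.03 for Gls2 (adjusted p = 0.0283). Sds, at 60.9 ± 50.3 CPM in controls and 32.5 ± 19.6 CPM at 1500 mkd (SD, n = 5), did not separate from its spread.

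The trends of Hal and Gls2 in these females were called, 2 of 10 members against 5.44% of all genes and 1.69% of all genes falling. Hal fell by 0.68 and Gls2 by 0.50 log2 units per 1000 mkd, with edgeR adjusted p of 0.016 and 0.044. Mean Hal was 621 CPM in controls, 535 CPM at 300 mkd, 472 CPM at 500 mkd, 368 CPM at 750 mkd, 393 CPM at 1000 mkd and 306 CPM at 1500 mkd. The trend of Hal was lost without replicate 2, 3 or 4 of every group (−0.66 to −0.58), and that of Gls2 without replicate 2, 3, 4 or 5 (−0.52 to −0.44) and with total-read scaling (−0.38). The 7 pericentral members differed by −0.14 to 0.43 at 1500 mkd, and 0 of them had an unadjusted p under 0.05. Cell states moved in the same comparison: the summed level of interferon response genes was 146 to 422 CPM in controls and 181 to 4244 CPM at 1500 mkd (median change 2.22, 2 of 10 called higher), and that of cell cycle genes 20.0 to 40.2 and 59.5 to 148 CPM (median change 2.03, 3 of 10 called higher). With total reads 9 and 7 of 10 were called. With TMM scaling 0.522% of all genes were called higher in this comparison. Of the 7 cell type marker lists, each had 0 genes called under either scaling. The part of these states in the changes of Hal and Gls2 was not tested. No member was called at the lower doses by edgeR or DESeq2. At 750 mkd Gls2 and Hal, and at 1000 mkd Hal, had an unadjusted p under 0.05.

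In males killed on day 29, Nkd1 rose along the doses. It was 2.40, 2.44, 1.88, 2.12 and 2.67 CPM in control males, 4.32, 3.34, 3.73, 4.07 and 3.23 CPM at 1000 mkd and 3.49, 3.01, 5.59, 4.07 and 2.81 CPM at 1500 mkd. All 5 rats at each of these doses were above all controls. The trend was 0.67 ± 0.15 log2 units per 1000 mkd (SE; edgeR adjusted p = 0.00382), and it was called in 11 of 11 alternatives, with an adjusted p of 0.0121 and a slope of 0.55 without the rat that stands apart. It was the 1 member of 10 with a trend, where 24.5% of all genes had one and 13.9% had a rising one. Without that rat Glul (−0.30, edgeR adjusted p = 0.0377) and Sds (1.45, edgeR adjusted p = 0.0428) were called too. With total-read scaling Rhbg (0.64, edgeR adjusted p = 0.0327) and Lect2 (0.29, edgeR adjusted p = 0.00289) were called as rising beside Nkd1.

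At single doses no member was called by edgeR in these males. Nkd1 changed by 0.70 ± 0.25 at 1000 mkd and 0.72 ± 0.25 at 1500 mkd (SE), with edgeR adjusted p of 0.0889 and 0.0718. At 1500 mkd DESeq2 called Nkd1 (0.69, adjusted p = 0.0482), and total-read scaling did so in edgeR (0.94, adjusted p = 0.0408). Without replicate 5 of every group Nkd1 was called at 1500 mkd (0.87, edgeR adjusted p = 0.0394). Of all genes 4.91% were called at 1500 mkd (3.16% higher and 1.76% lower) and 2.76% at 1000 mkd. Hal at 750 mkd was below all controls in 5 of 5 males, by −0.55 ± 0.26 (SE), and was not called (edgeR adjusted p = 0.206). At this dose 0.532% of all genes were called lower. Rhbg, Nkd1 and Lect2 had an unadjusted p under 0.05 at 1500 mkd. At the lower doses Rhbg and Lect2 at 500 mkd, Hal at 750 mkd and Nkd1 and Lect2 at 1000 mkd did, and DESeq2 called 0 there.

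The rat that stands apart set the highest value of several other Wnt targets in these males. Axin2 was 9.19, 4.82, 23.7, 8.98 and 6.70 CPM at 1500 mkd against 8.70, 10.6, 6.70, 9.49 and 9.91 CPM in controls. Rhbg was 4.96, 6.45, 24.2, 12.1 and 4.12 CPM against 4.83, 5.96, 6.63, 6.86 and 5.16 CPM. The treated range exceeded the control range for both through replicate 3, joined for Rhbg by replicate 4. Leaving that rat out moved the change of Axin2 from 0.24 to −0.35, that of Lgr5 from 0.73 to −0.21, that of Rhbg from 0.82 to 0.17 and that of Nkd1 from 0.72 to 0.48 (edgeR adjusted p = 0.201 for Nkd1). Gls2 moved from 0.18 to 0.36 and Sds from 1.59 to 1.82 on the log2 scale. The paper treats the same rat as an outlier in Ki67 labelling, its measure of cell proliferation, and left it out of its Ki67 dose modelling. Cell cycle genes moved with this rat: their summed level was 1051 CPM in it against a group median of 67.5 CPM. Of these genes 7 of 10 were called higher at 1500 mkd with it and 3 of 10 without it. Their part in the result was not tested.

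**Figure D2:**
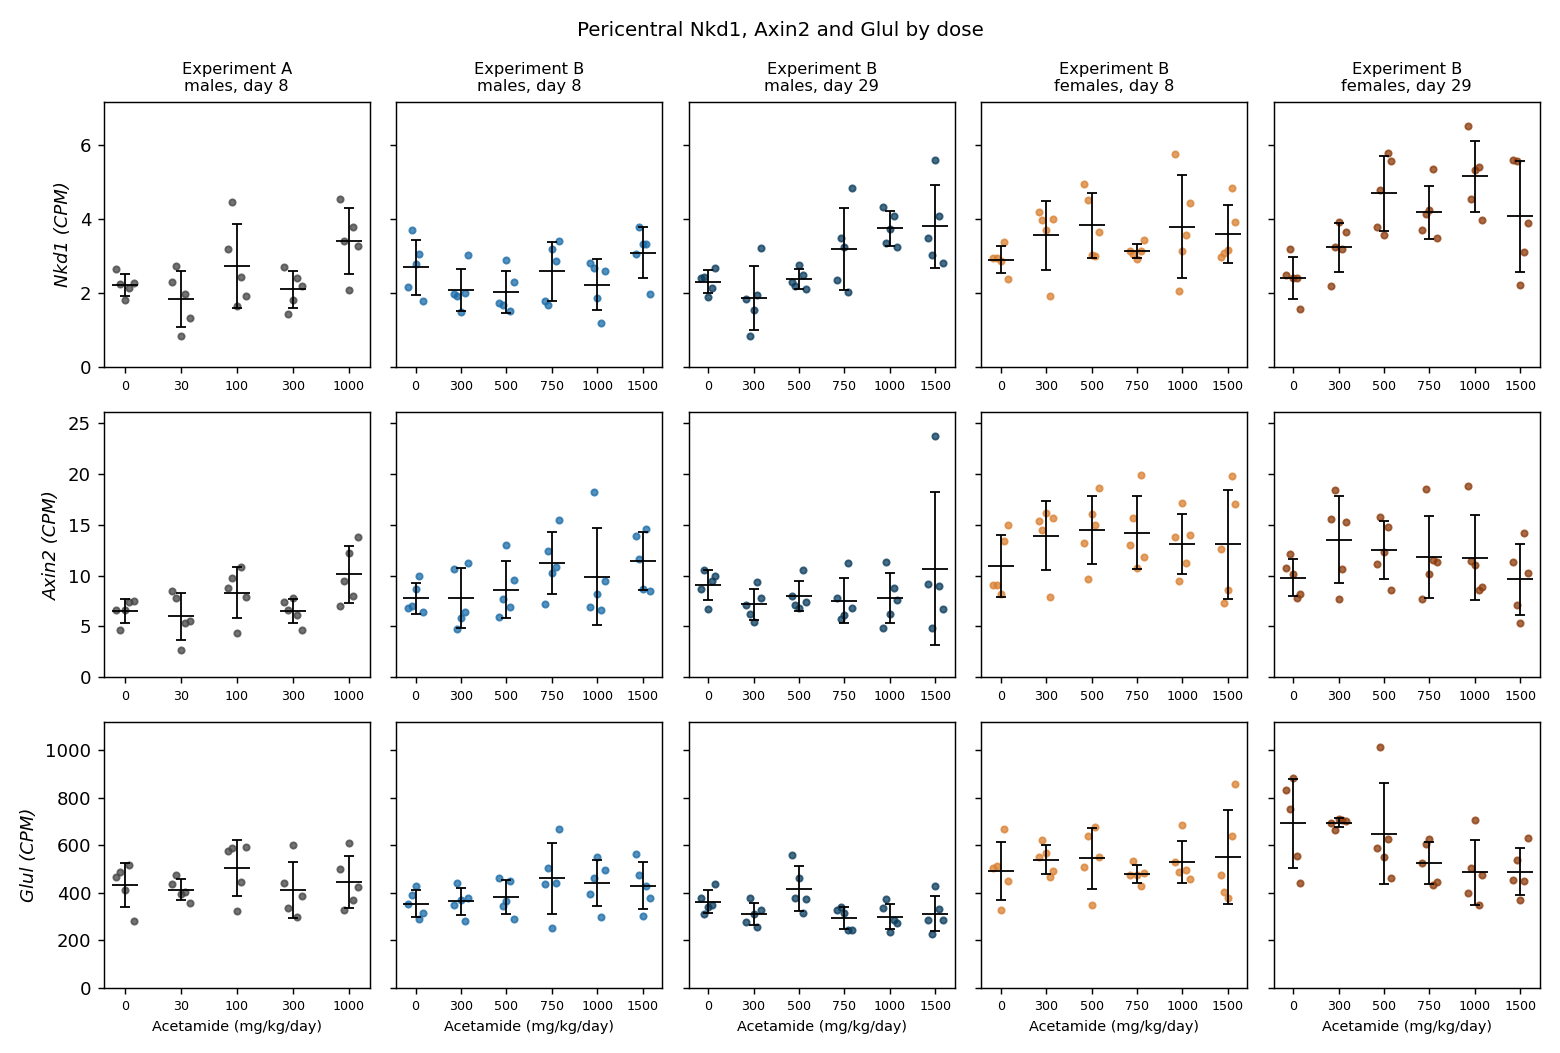
Level of Nkd1, Axin2 and Glul (CPM, linear axis) by dose of acetamide (mkd) in the 5 data sets, with a point for each rat and the mean ± SD of 5 rats. Nkd1 climbs from 2.30 to 3.79 CPM in males of day 29, where 1 rat at 1500 mkd reaches 23.7 CPM for Axin2, and Glul of day 29 females moves from 693 to 487 CPM.

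Females killed on day 29 showed the 1 pericentral gene that passed both criteria. Nkd1 was 2.49, 3.18, 2.39, 2.41 and 1.56 CPM in control females, 6.5, 4.53, 5.32, 5.39 and 3.96 CPM at 1000 mkd and 5.58, 5.56, 2.21, 3.10 and 3.87 CPM at 1500 mkd. At 1000 mkd all 5 rats were above all controls, and at 1500 mkd 3 of 5 were. Nkd1 rose by 1.09 ± 0.23 at 1000 mkd and by 0.76 ± 0.23 at 1500 mkd (log2, SE), with edgeR adjusted p of 0.0205 and 0.0202. It was the 1 member of 10 called at each dose, where 1.59% of all genes were called at 1000 mkd and 13.1% at 1500 mkd (1.23% and 9.55% higher).

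At 500 and 750 mkd Nkd1 was also above all controls in 5 of 5 females. It was 3.77, 4.77, 3.57, 5.78 and 5.56 CPM at 500 mkd and 3.70, 4.11, 4.24, 5.33 and 3.49 CPM at 750 mkd. The changes of 0.96 ± 0.23 and 0.79 ± 0.23 (SE) were not called in edgeR (adjusted p = 0.0825 and 0.109), where 0.0349% and 0.183% of all genes were called. DESeq2 called Nkd1 at 500, 750, 1000 and 1500 mkd. At 300 mkd 3 of 5 females were above all controls, with a change of 0.42 ± 0.23 (SE; edgeR adjusted p = 0.997). The level at 1500 mkd was below that at 1000 mkd in the means (4.06 ± 1.49 against 5.14 ± 0.963 CPM, SD, n = 5), a difference that was not tested and lies within 1 SD of the 1500 mkd group.

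The calls of Nkd1 in these females depended on single rats. At 1500 mkd the call was lost without treated replicate 1 (0.61, edgeR adjusted p = 0.0702), treated replicate 2 (0.62, edgeR adjusted p = 0.0899) or control replicate 5 (0.65, edgeR adjusted p = 0.0645), and in a fit of the 2 groups compared alone (0.74, edgeR adjusted p = 0.132). Leaving out replicate 1, 2 or 5 of every group also ended it (0.61 to 0.72), and Glul, Tbx3 and Hal were then called without replicate 5. At 1000 mkd it was lost without replicate 1, 4 or 5 of every group through the adjusted p (0.0545 to 0.149 in edgeR), with a change of 1.02 to 1.07. With total-read scaling Nkd1 (1.17) and Rhbg (0.89) were called at 1500 mkd.

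Glul and Tbx3 fell along the doses in the same females. Glul was 832, 753, 882, 555 and 442 CPM in controls and 452, 538, 370, 448 and 628 CPM at 1500 mkd. The groups overlapped, with 1 of 5 treated rats below all controls. Tbx3 was 10.9, 18.0, 12.2, 11.3 and 7.76 CPM in controls and 6.24, 2.54, 3.49, 9.53 and 13.9 CPM at 1500 mkd, with 3 of 5 treated rats below all controls. Glul fell by 0.42 and Tbx3 by 0.67 log2 units per 1000 mkd, and Nkd1 rose by 0.49, with edgeR adjusted p of 0.00833, 0.0394 and 0.0302. These were 3 of 10 members, where 27.3% of all genes had a trend. Neither Glul (−0.51, edgeR adjusted p = 0.0805) nor Tbx3 (−0.77, edgeR adjusted p = 0.183) was called at 1500 mkd.

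The trends of Glul, Tbx3 and Nkd1 depended on the settings to different degrees. With total-read scaling the slope of Glul was −0.16 and that of Tbx3 −0.47, and neither was called, while Rhbg was called as rising (0.58, edgeR adjusted p = 0.00746). Glul was lost without replicate 1 of every group (−0.36), Tbx3 without replicate 1, 2, 3 or 4 (−0.71 to −0.38) and on a logarithmic dose scale, and Nkd1 without replicate 1, 2 or 5 (0.35 to 0.48). Without treated replicate 5, on the other hand, Glul (−0.62), Tbx3 (−1.15), Nkd1 and Hal (−0.70) were all called at 1500 mkd. Hal was 491 ± 108 CPM in controls and 336 ± 95.4 CPM at 1500 mkd (SD, n = 5), and Gls2 225 ± 70.8 and 180 ± 38.7 CPM, and neither was called with all rats.

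**Figure D3:**
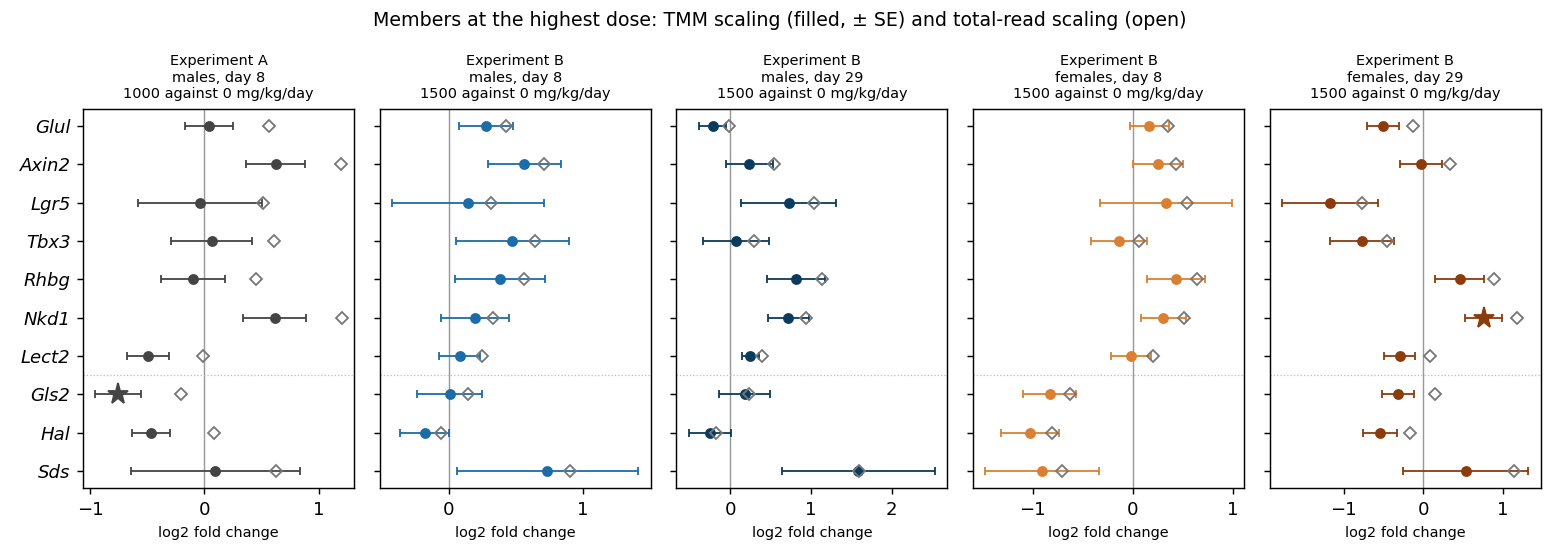
Log2 fold change of the 10 members at the highest dose of each data set (1000 mkd in experiment A, 1500 mkd in experiment B) with its SE, after TMM scaling (filled) and after scaling to total gene reads (open diamonds). Stars mark calls: with TMM these are Gls2 in experiment A at −0.75 and Nkd1 in females of day 29 at 0.76, and the open diamonds lie to the right in each data set.

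Tests of the difference in response at 1500 mkd found no member that responded differently by sex or time. Between the sexes 0 of 10 members passed on day 8 (0% of all genes) and 0 on day 29 (0.466%), and 2 had an unadjusted p under 0.05 on each day. These were Gls2 (−0.84) and Hal (−0.85) on day 8 and Lgr5 (−1.86) and Lect2 (−0.51) on day 29, as females minus males on the log2 scale. Between day 29 and day 8, 0 members passed in males (0% of all genes) and in females (0.0169%), and Glul in females (−0.66) alone had an unadjusted p under 0.05. EdgeR with the size factors of DESeq2 also passed 0 members in each. Missing the threshold does not show that the responses were the same.

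The clearest difference between groups of rats was in the untreated liver, where Hal, Lect2 and Glul were higher in females. On a scale shared by the 4 data sets of experiment B, Hal on day 8 was 796, 630, 632, 387 and 452 CPM in vehicle females and 197, 223, 136, 211 and 132 CPM in vehicle males. The sexes did not overlap. Females were higher by 1.69 ± 0.25 on the log2 scale (SE; edgeR adjusted p = 1.4309e-07), and Hal was the 1 member of 10 called, where 8.00% of all genes were. On day 29 Hal was 536, 587, 363, 549 and 374 CPM in females and 246, 232, 299, 320 and 226 CPM in males, again with no overlap. The difference was 0.86 ± 0.25 (SE; edgeR adjusted p = 0.0080), and it was lost without replicate 2 of every group (0.74, edgeR adjusted p = 0.0629).

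Lect2 on day 29 was 301, 236, 244, 223 and 271 CPM in vehicle females and 112, 135, 128, 109 and 126 CPM in vehicle males. Every female was above every male, by 1.06 ± 0.17 (SE; edgeR adjusted p = 1.19e-06). On day 8 the difference in Lect2 was 0.56 ± 0.17 (SE; edgeR adjusted p = 0.0193), under the fold criterion, and it was called without replicate 3 (0.62) or 4 (0.59) of every group. Glul on day 29 was 830, 734, 859, 538 and 438 CPM in females and 402, 332, 363, 371 and 456 CPM in males, and 1 female was below the highest male. Glul was higher in females by 0.82 ± 0.20 (SE; edgeR adjusted p = 0.00123). The 3 members called on day 29 stand beside 12.1% of all genes, and 6.46% of all genes were called higher in females. Lgr5 was lower in females on day 8 by 1.73 ± 0.64, with an edgeR adjusted p of 0.0626, at levels between 0.0359 and 0.945 CPM.

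In the means the sex difference of Hal, Lect2 and Glul ran through most dose groups, but full separation did not. All 5 females were above all 5 males in 9 of the 12 dose and day groups of experiment B for Hal. This held in 5 groups for Lect2, 2 for Glul and 1 for Nkd1. For Lect2 and Glul these groups were all of day 29. At 1500 mkd Hal, Lect2 and Glul overlapped between the sexes on both days. Of all genes 1.37% reached 9 groups, 3.58% reached 5, 9.79% reached 2 and 19.8% reached 1. For Sds all 5 females were below all 5 males in 1 group, as 19.9% of all genes were in at least 1. The female mean was the higher in 12 of 12 groups for Hal and Lect2, 11 for Glul, 10 for Axin2 and Nkd1 and 8 for Tbx3, and in 3 for Rhbg, 2 for Gls2, 1 for Lgr5 and 0 for Sds. Of all genes the female mean was the higher in 12 groups for 13.8%, in at least 11 for 22.5%, in at least 10 for 29.8% and in at least 8 for 43.3%. Among the periportal members the mean of Hal was thus higher in females in each group, and the means of Gls2 and Sds were higher in males in most groups, without a test of that split. The share of all genes with a higher female mean in 3 groups or fewer was not counted.

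**Figure D4:**
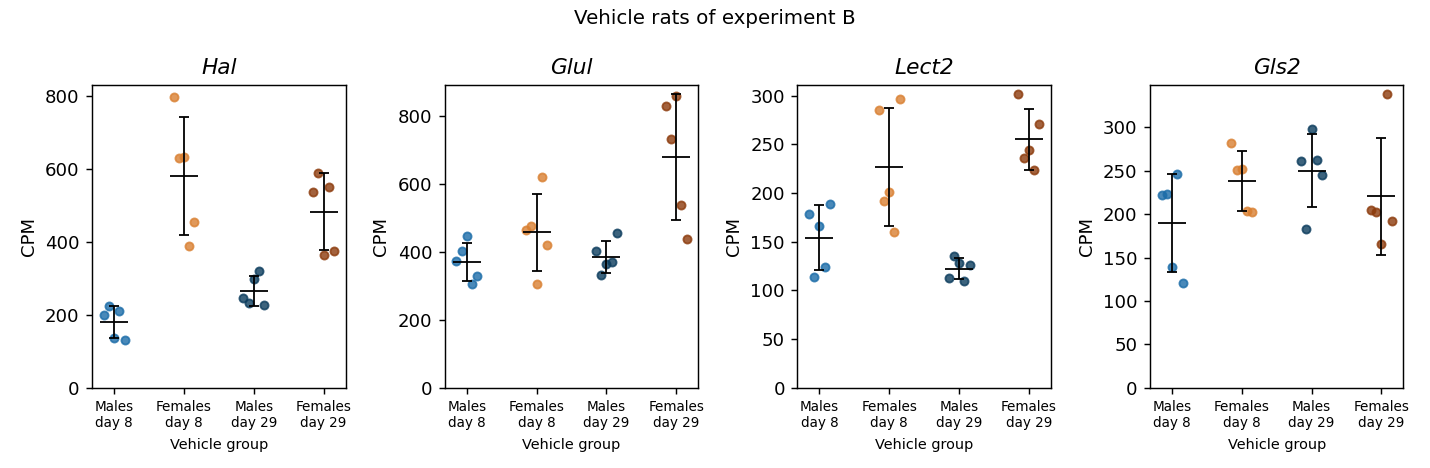
Level of Hal, Glul, Lect2 and Gls2 (CPM on the scale shared by experiment B, linear axis) in each vehicle rat of experiment B by sex and day, with the mean ± SD of 5 rats. Hal and day 29 Lect2 of females lie clear of males, Glul of day 29 overlaps in 1 female, and Gls2 overlaps throughout.

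Rats given the same treatment also differed among themselves, and the members differed in how much. The pooled SD within groups was 0.279 log2 units for Lect2, 0.319 for Glul, 0.375 for Hal, 0.394 for Nkd1, 0.429 for Gls2 and 0.444 for Axin2, where the median over all genes was 0.301. Rhbg (0.530), Tbx3 (0.652) and Lgr5 (0.826) were more variable. Sds, at 1.38, was more variable than 99.6% of genes. Across all rats Sds ran from 5.54 to 1259 CPM. In control males of day 29 alone it was 77.2, 15.3, 260, 153 and 113 CPM.

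Part of this spread was common to members of a zone. Deviations of log2 CPM from the group mean were correlated over all rats for the 45 pairs of members, with permutations of rats within groups (two-sided) and Benjamini-Hochberg adjustment over the 45 pairs. Of the 21 pairs of pericentral members 12 were positively correlated past an adjusted p of 0.05, as were 3 of 3 periportal pairs. Of the 21 pairs across the zones 0 passed in either direction, with r from −0.166 to 0.152. These pooled values hide opposite signs in single data sets. Glul and Hal gave r = 0.52 in experiment A and −0.50 in males of day 29, and Axin2 and Gls2 gave 0.20 and −0.67. The males of day 29 include the rat that stands apart, and these differences between data sets were not tested. Correlated deviations are common among liver genes: of all pairs of the 11066 genes ranked, 16% had an r at or above 0.24, the lowest value that passed here, and the median r was −0.0045.

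Gls2 and Sds gave the highest correlation, with r = 0.65 and rho = 0.63. Gls2 and Hal gave r = 0.61 and rho = 0.59, and Axin2 and Tbx3 gave r = 0.59 and rho = 0.58. Each had a permutation p of 1e-05 for r and for rho, the smallest these permutations can give, and an adjusted p of 0.00015. Without the 2 rats farthest from the median of the first gene, r was 0.61, 0.56 and 0.58. Within single data sets r was 0.58 to 0.74 for Gls2 and Sds, 0.47 to 0.78 for Gls2 and Hal and 0.38 to 0.76 for Axin2 and Tbx3. Hal and Sds were less closely related (r = 0.28, rho = 0.28, r = 0.23 without the 2 farthest rats, permutation p = 0.00271, adjusted p = 0.0111).

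Among the other pericentral pairs that passed, r was 0.24 to 0.37. They were Glul with Axin2 (0.30), Lgr5 (0.36), Tbx3 (0.35) and Rhbg (0.30), Axin2 with Lgr5 (0.33) and Nkd1 (0.37), Lgr5 with Tbx3 (0.37), Rhbg (0.27) and Nkd1 (0.25), and Rhbg with Nkd1 (0.27) and Lect2 (0.24). In the 25 vehicle rats alone, Glul and Rhbg (−0.114), Lgr5 and Rhbg (−0.0532) and Rhbg and Nkd1 (−0.314) turned negative. There Glul with Lgr5 (0.0694) and Tbx3 (0.140) and Axin2 with Lgr5 (0.0617) were also weaker than over all rats. Axin2 with Tbx3 (0.529) and Nkd1 (0.344) and Lgr5 with Tbx3 (0.392) changed less. With rank correlation over all rats, Lgr5 with Nkd1 (rho = 0.21) and Rhbg with Nkd1 (rho = 0.20) did not pass. Library scaling moved with several members: over the same rats the log2 TMM factor had r = −0.50 with Lect2, 0.39 with Nkd1, −0.37 with Gls2, 0.36 with Axin2 and −0.26 with Hal. With that factor removed all 15 pairs kept their sign, at r of 0.20 to 0.70.

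**Figure D5:**
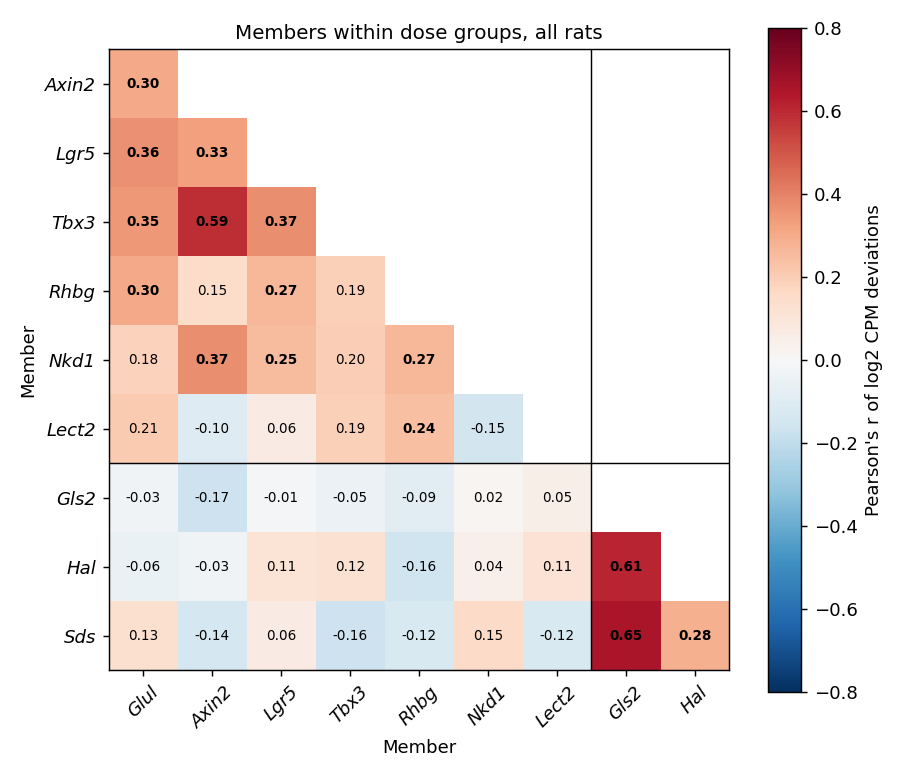
Pearson r of deviations from the group mean of log2 CPM for the 45 pairs of members over all rats, as a lower triangle with r printed in each cell and bold where the adjusted permutation p is at most 0.05. The pericentral block reaches 0.59, the periportal block 0.65, and the block between the zones stays within −0.166 to 0.152.

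The genes whose deviations were most like each member over all rats, among 11066 genes, give a further description. For Glul they were Slc1a2 (r = 0.54), Fmo1 (0.50) and Sp5 (0.46), of which Slc1a2 is a pericentral glutamate transporter and Sp5 a Wnt target. For Lgr5 they were Rnf43 (0.64), Zfp385b (0.63) and Bcar3 (0.62), and for Tbx3 Rnf43 (0.64), Axin2 (0.59) and Tnfaip2 (0.56). Rnf43 is a Wnt-induced ubiquitin ligase that removes Wnt receptors. For Axin2 they were Fam222b (0.62), Ubtf (0.61) and Tbx3, and for Rhbg Fmo1 (0.40), Rps25 (0.39) and Poll (0.38). Nkd1 stood nearest to the matrix genes Emilin1 (0.75) and Bgn (0.69), with Mtss1l (0.70) between them, and Lect2 to the ribosomal and respiratory chain genes Rps29 (0.77), Ndufa6 (0.74) and Cox6c (0.74).

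Among the periportal members, Gls2 was nearest to Ass1 (0.79), Aspg (0.79) and Pink1 (0.71), Hal to Amdhd1 (0.62), Gls2 and Naprt1 (0.59), and Sds to Got1 (0.74), Asl (0.67) and Ass1 (0.65). Ass1 and Asl are urea cycle enzymes and Amdhd1 acts in the histidine pathway that Hal opens. These are correlations across rats with the mean of each group removed, and all genes of a rat share its library and its scaling.

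With TMM scaling few genes of the wider Wnt pathway passed the criteria at the highest doses. Over all genes edgeR called 14.0% higher and 7.45% lower in experiment A. The shares were 9.55% and 3.54% in females of day 29, and 3.16% and 1.76% in males of day 29. Of 8 ligands and secretion genes tested in each data set, edgeR called 0 higher or lower in experiment A, in males of either day and in females of day 8. In females of day 29, Wnt4 rose by 1.62 ± 0.41 (SE; edgeR adjusted p = 0.00711), with 5 of 5 treated rats above all controls. Among receptors, Lgr4, a partner receptor for R-spondins, fell by 0.59 ± 0.18 (SE) in experiment A, a call that was lost with total reads (−0.06). Fzd5 and Lrp6, a Frizzled receptor and the Wnt co-receptor, fell by 0.99 ± 0.29 and 0.95 ± 0.25 in males of day 29, with 5 of 5 treated rats below all controls and edgeR adjusted p of 0.0368 and 0.0234. They were 2 of 10 receptors (3 of 10 without the rat that stands apart), and with total reads neither was called (−0.82 and −0.73).

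Of the 9 Wnt inhibitors tested in males of day 29, the secreted antagonist Sfrp1 rose by 1.63 ± 0.40 (SE; edgeR adjusted p = 0.0179), with and without that rat. In core signalling, the kinase gene Csnk1e was the 1 of 16 called in experiment A (0.62) and in females of day 29 (0.65). Of 5 other Wnt targets, 2 rose in experiment A, Sp5 by 0.99 ± 0.37 and Ccnd1 by 1.63 ± 0.34 (SE), and Ccnd1 rose by 0.99 ± 0.26 in females of day 29. Ccnd1 encodes cyclin D1 and is also a cell cycle gene. The list medians in experiment A were 0.13 for ligands, −0.24 for receptors, 0.38 for inhibitors and 0.91 for the other targets, beside 0.00 for all genes, and receptors turned to 0.34 with total reads.

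The count of pathway genes called depended on the scaling. With total reads, where the median of all genes was 0.58 in experiment A, 4 of 8 ligands, 3 of 11 receptors, 10 of 16 core genes, 5 of 9 inhibitors and 4 of 5 other targets were higher there. Where that median was 0.42, in females of day 29, 4 of 8 ligands, 1 of 11 receptors, 3 of 16 core genes, 4 of 8 inhibitors and 1 of 5 other targets were higher. In males of day 29, where it was 0.22, 1 of 8 ligands and 1 of 9 inhibitors were higher and the receptors, core genes and other targets had 0 called. In these 3 data sets 0 pathway genes were lower with total reads. The share of all genes called higher with total reads is not reported here. The counts above are thus not a result about the pathway.

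With TMM scaling some other zonation markers of both zones were lower in experiment A and in females of day 29. In experiment A, 4 of 14 other pericentral genes and 8 of 16 other periportal genes were lower and 0 were higher, with medians of −0.56 and −0.60. Of all genes 7.45% were called lower and 14.0% higher there. Among pericentral genes Cyp1a2, a drug-metabolising P450, fell by 1.06 ± 0.31, the bile acid enzyme Cyp27a1 by 0.61 ± 0.17 and ornithine aminotransferase (Oat) by 1.31 ± 0.42 (SE). Among periportal genes Ass1 fell by 0.79 ± 0.25 and apolipoprotein Apoa4 by 1.93 ± 0.29 (SE). With total reads the counts were 1 lower of 14 (Oat), and 1 lower (Apoa4) and 3 higher of 16, so Cyp1a2, Cyp27a1 and Ass1 were no longer called, and the medians were −0.07 and −0.12.

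In females of day 29 the same lists gave 3 of 13 pericentral genes lower (among them Cyp27a1 and Oat, by 0.82 and 1.14) and 3 of 16 periportal genes lower (among them Cps1 and Ass1, by 0.74 and 0.62), where 3.54% of all genes were called lower. The periportal list had 1 gene higher, Sox9 (0.63), where 9.55% of all genes were called higher. Sox9 also stands in the list of cholangiocyte markers used below. Their medians were −0.41 and −0.42, and with total reads 0.04 and 0.01, where Oat was the 1 of these 6 lower genes still called. In males of day 29, 0 of 16 periportal genes were called and 1 of 14 pericentral genes was, Cyp2e1, a gene outside the naming rule that was chosen after its values were seen. It rose by 0.73 ± 0.21 (SE; edgeR adjusted p = 0.0326), with 5 of 5 treated rats above all controls. Its change without the rat that stands apart and its change with total reads are not given here. In both day 8 data sets of experiment B edgeR called 0 of either list.

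Around the enzymes of the periportal members, Ftcd, which completes histidine breakdown, fell by 1.06 ± 0.20 in experiment A and by 0.64 ± 0.19 in females of day 29 (SE). Agxt fell by 0.83 ± 0.23 in experiment A (SE). Of 9 genes in this list, 1 was higher and 2 were lower in experiment A, and 1 was lower in females of day 29. With total reads Ftcd (−0.57 in experiment A and −0.21 in females) and Agxt (−0.26) were not called. Of the transporters of ammonia and glutamine, Slc1a5 rose by 2.25 ± 0.34 and Slc38a1 by 1.11 ± 0.37 while Slc38a4 fell by 0.71 ± 0.24 in experiment A (SE). In females of day 29, Slc1a5 (0.80), Slc38a1 (0.95) and Rhcg (2.49), a relative of Rhbg, were higher and Slc38a4 (−0.59) was lower. With total reads Slc38a4 was called in neither. Of 10 genes of the fasting and glucagon response, Creb3l3 (−0.62) and Cpt1a (−0.92) were lower in experiment A and Ppargc1a was higher in females of day 29 (2.95 and 6.29 CPM on average in controls and at 1500 mkd), a call lost with the size factors of DESeq2. With total reads Creb3l3 (−0.09) and Cpt1a (−0.45) were not called.

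Markers of cell types and states moved beside these genes. Of all genes 7.45% were called lower and 14.0% higher in experiment A, and 3.54% and 9.55% in females of day 29. In experiment A, 5 of 10 hepatocyte markers were lower, and the summed level of the list was 270684 to 358325 CPM in controls and 86772 to 265528 CPM at 1000 mkd. In females of day 29 it was 212069 to 402822 CPM in controls and 104220 to 212603 CPM at 1500 mkd, with 1 of 10 lower and 1 higher. Albumin fell by 0.91 ± 0.27 and 0.98 ± 0.26 (SE) in these comparisons, and with total reads its changes of −0.45 and −0.54 were under the fold criterion.

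Endothelial markers, chosen for endothelial cells as a whole, were higher for 5 of 7 genes in experiment A (77.5 to 172 CPM in controls and 138 to 278 CPM at 1000 mkd, summed). In females of day 29 they were higher for 3 of 7 (101 to 324 and 241 to 391 CPM). Macrophage markers were higher for 6 of 9 genes (478 to 1388 and 1127 to 2083 CPM) and 4 of 9 (847 to 1086 and 1039 to 1882 CPM). T and NK cell markers were higher for 7 of 7 genes in experiment A (5.96 to 7.33 and 9.38 to 29.0 CPM) and 1 of 6 in females of day 29. Erythroid markers were lower for 2 of 4 and 3 of 4 genes, with Hba1 at 0 in all rats of these groups. Stellate cell markers were higher for 1 of 8 and 2 of 8, with Col1a2 at 0, and cholangiocyte markers for 0 of 5 and 1 of 5 (Sox9, counted above among periportal genes too). Cell cycle genes were higher for 10 of 10 in both (21.9 to 78.2 and 98.7 to 225 CPM, and 20.5 to 31.3 and 48.9 to 162 CPM), and interferon response genes for 10 of 10 and 6 of 10.

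These counts too depended on the scaling. The share of all genes called with total reads is not reported here beside them. With total reads hepatocyte markers were lower for 0 of 10 and higher for 1 of 10 in both comparisons. Those of endothelial cells were higher for 6 of 7 in experiment A (3 of 7 with the size factors of DESeq2) and 5 of 7 in females of day 29, of macrophages for 9 of 9 and 9 of 9, of T and NK cells for 7 of 7 and 4 of 6, of stellate cells for 5 of 8 and 6 of 8, and of cholangiocytes for 3 of 5 and 5 of 5. Erythroid markers were lower for 2 of 4 and 1 of 4. Cell cycle genes were higher for 10 of 10 in both, and interferon response genes for 10 of 10 and 9 of 10. The part of these cell types and states in the changes of the members was not tested.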

How the data were processed

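Liver RNA of rats in 29 groups of 5 was measured as gene counts in 5 tables: experiment A males, and males and females of day 8 and day 29 of experiment B. Per the labels and the methods of the study, the authors used a stranded mRNA kit, trimmed reads with Trimmomatic (reads under 50 bases rejected), aligned them to the rat Rn6 build with Bowtie2 and counted reads per gene with HTSeq. Tool versions are not given in the sources used here. The authors deposited raw counts. HTSeq summary lines, 35.5 to 67.1% of reads in the 120 rats of experiment B, were left out of totals and tests. No columns were identical between rats.

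Tests used edgeR 4.0.16 in R 4.3.3 (quasi-likelihood F test, TMM, filterByExpr), with all dose groups of a table in 1 fit, 11279 to 11497 genes tested and Benjamini-Hochberg adjustment over all of them. Calls needed an absolute fold change of 1.5 or more with an adjusted p of at most 0.05. Trends used dose per 1000 mkd and the adjusted p alone. Sexes, days and experiments were compared by interaction terms in joint fits. Correlations used log2 CPM with a prior count of 2 and 100000 permutations within groups. Scripts were tested on simulated counts. Alternatives were DESeq2 1.42.0, its size factors, no filter, at least 10 reads in every rat, a replicate block, fits of the control and 1 dose alone, a logarithmic dose, and leaving out rats. Scaling to total gene reads, removal of the TMM factor from correlations, and the trends and lists without 1 male of day 29 were added after seeing the data.

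The members and lists were chosen with earlier results of these data known. The pathway genes named were up to 4 of each list with the most calls, then the largest mean absolute log2 change. Some genes that this rule names are not reported here. Groups came from the labels. The 5 vehicle males of day 29 carry an experiment label that differs from their titles, which place them in experiment B, and were used there. Replicate numbers came from the titles in experiment B and from accession order in experiment A, where they only name rats and differ from the numbers in some titles. They did not pair rats: the median correlation of deviations of same-numbered rats was −0.023 to 0.032 over the 5 tables, and −0.0040 in experiment A by the numbers in the titles. P-values measure the spread between single rats of 1 library each.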

Additional observations from a re-analysis of the deposited data

Results flagged for a closer look

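In 21 of 290 combinations of a member and a group of 5 rats, 1 rat lay apart from the others by Dixon's criterion, and chance alone gives about 1 in 20 groups. Axin2 was highest in 1 rat at 18.2 CPM (males, day 8, 1000 mkd), 23.7 CPM (males, day 29, 1500 mkd) and 18.8 CPM (females, day 29, 1000 mkd) and lowest in 1 rat at 7.91 CPM (females, day 8, 300 mkd). Lgr5 was highest at 0.567 CPM (males, day 8, 500 mkd), 1.03 CPM (males, day 29, 1500 mkd) and 0.582 CPM (females, day 29, 1000 mkd). Tbx3 reached 14.8 CPM in a female of day 8 at 750 mkd. Rhbg reached 18.1 CPM both in a female of day 8 at 1500 mkd and in a female of day 29 at 750 mkd, while Nkd1 was lowest at 1.91 CPM in a female of day 8 at 300 mkd. Lect2 was highest in males of day 8 at 185 CPM (750 mkd) and 171 CPM (1000 mkd).

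Gls2 reached 349 CPM and Sds 279 CPM in the same rat, replicate 4 of the vehicle females of day 29. Hal was highest in females of day 29 at 713 CPM (300 mkd), 635 CPM (750 mkd) and 734 CPM (1000 mkd). Sds was highest at 538 CPM (experiment A, 300 mkd), 322 CPM (males, day 29, 300 mkd) and 1259 CPM (males, day 29, 1500 mkd). The values of Axin2 and Lgr5 at 1500 mkd in males of day 29 came from the same rat, and that of Sds from another.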

How the results depend on the processing

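Of 287 alternatives for 24 counts of members, 240 lay within 1.5 times the reported count. At the highest dose of experiment A (1 called), the adjusted p alone gave 3, a fit of the control and 1 dose alone 2, total gene reads 2, and leaving out rats 0 to 3. Its trends (5) fell to 3 with total reads and to 3 to 4 without rats. In males of day 29, DESeq2 gave 1 and total reads 1 at 1500 mkd (0 reported, 0 to 1 without rats), a fit of the control and 1 dose alone gave 1 at the lower doses (0 reported), and trends (1) were 3 with total reads, 3 without treated replicate 3 and 1 to 3 without rats. In females of day 8, DESeq2 gave 2 at 1500 mkd (0 reported, 0 to 2 without rats), and trends (2) were 1 with total reads and 0 to 2 without rats. In females of day 29, 1500 mkd (1) gave 0 in a fit of those 2 groups alone, 2 with total reads and 0 to 4 without rats. The lower doses (1) gave 3 with DESeq2 and 0 to 1 without rats, and trends (3) gave 1 to 3 without rats. Vehicle sexes gave 1 to 2 on day 8 (1) and 2 to 3 on day 29 (3).

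With the replicate block, trends in females of day 8 were 1, since Gls2 (−0.51) was lost, and Tbx3 (−0.65) lost its trend in females of day 29. Blocking experiment A on the numbers in the titles, an alternative chosen after seeing the data, kept Gls2 (−0.75) and 4 of its 5 trends, with Axin2 (0.59, edgeR adjusted p = 0.0515) lost. Replicate numbers did not pair rats. The slope of Hal in experiment A reversed to 0.0989 with total reads, and with vehicle rats only 3 correlations reversed, Glul and Rhbg (−0.114), Lgr5 and Rhbg (−0.0532) and Rhbg and Nkd1 (−0.314). The cause of these changes was not tested. Total-read scaling, the correlations without the TMM factor and the male trend without treated replicate 3 were chosen after seeing the data. With 0 to 46 reads a rat, Lgr5 was the member most limited by depth.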
